A study of Mus musculus with 2 samples.

Results

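This account covers genes that mark leukocyte lineages, read in cultures of mouse intestinal myofibroblasts. The set holds pan-leukocyte, macrophage and myeloid, eosinophil, neutrophil, lymphocyte and mast cell genes, chosen by name. Of 45 listed genes, 44 had a probeset paired with exactly 1 gene, out of 22180 named genes on the array. Cd74 had no such probeset and is given no value. Every one of the 44 was read by a single probeset.

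Subepithelial myofibroblasts are the contractile, matrix-producing stromal cells under the gut epithelium, here taken from the small bowel of wild-type BALB/c mice. The stimulated cultures received homogenised eosinophils of the intestine, at 5 mg/ml, for 1 day, and the non-stimulated cultures were kept for as long without it. RNA of 3 cultures was pooled for each condition and measured on 1 whole-transcript array, so there is no replicate error, no test is possible, and every value describes these 2 pools. The number of arrays limits the precision. One label field calls the source of both samples intestinal eosinophils, while the titles, treatment and extraction texts speak of myofibroblasts. The values are log2 intensities made by the authors with RMA, and each difference is the stimulated minus the non-stimulated value, on that scale.

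Leukocytes share a set of surface and cytoskeletal proteins that other cells mostly lack, such as the phosphatase CD45. Their lineages then differ in granule proteins, Fc receptors and growth factor receptors. Macrophages and eosinophils both live in the lamina propria of the small intestine, next to the myofibroblasts. The transcription factor PU.1, the product of Spi1, is needed to form myeloid cells and binds purine-rich sites in the promoters of many leukocyte genes.

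A level was called above background when it passed the 95th percentile of 1407 probesets for olfactory and vomeronasal receptors, which are known mainly from sensory neurons of the nose. That level was 5.57 on the stimulated array and 5.58 on the non-stimulated array. By this rule 17 of the 44 leukocyte genes were above background on at least 1 array, which is 38.6%, against 63.4% of all named genes. On both arrays it was 13 of them, or 29.5%, against 59.5% of all named genes. By array, 16 were above it on the stimulated array and 14 on the non-stimulated array. All 14 fibroblast identity genes, among them Vim, Col1a1 and Pdgfrb, were above it on both arrays. Of other lineages, so were 4 of 10 endothelial genes, 6 of 12 epithelial genes and 4 of 5 enteric neuron and glia genes, the glial Sox10 among them at 8.05 on the stimulated and 8.22 on the non-stimulated array. The leukocyte count depends on the choice of background genes. With a level from 103 probesets of taste receptor, crystallin, protamine and beta-defensin genes, 6.34 on the stimulated and 6.47 on the non-stimulated array, it was 4 genes (Cd53, Cd68, Cx3cr1 and H2-Ab1). With the 99th percentile of the receptor probesets it was 2, Cd53 and Cx3cr1.

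**Figure D1:**
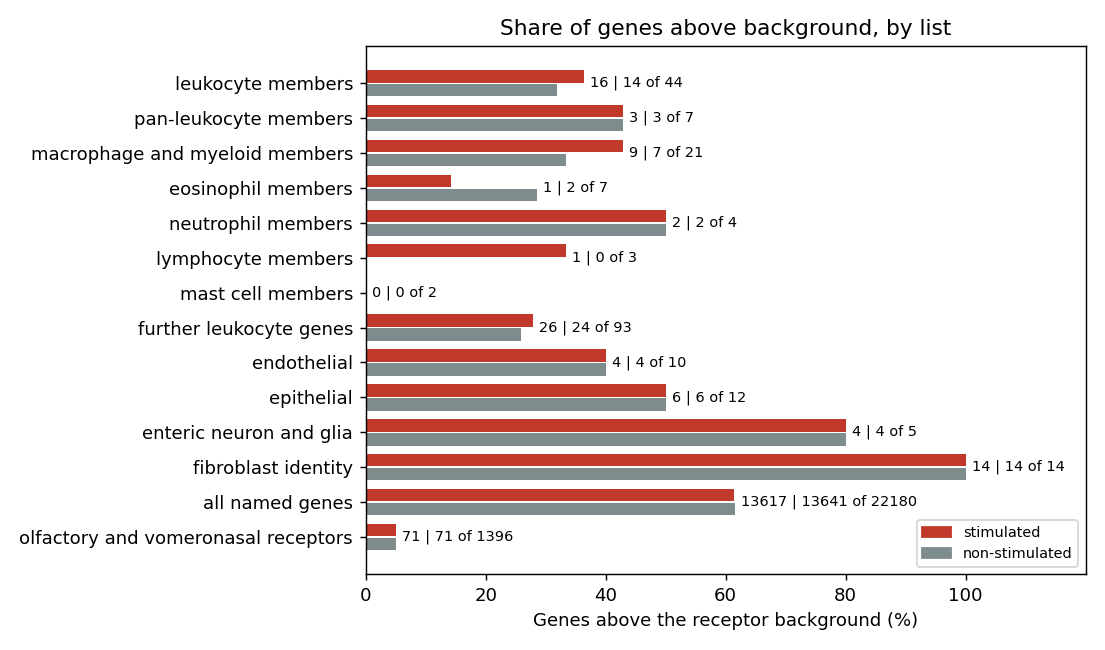
Share of genes above the receptor background in each list, in percent, on the stimulated array (red) and on the non-stimulated array (grey), with the counts beside the bars. Of 44 leukocyte genes, 16 were above it on the stimulated and 14 on the non-stimulated array, and all 14 fibroblast identity genes were on both.

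Few leukocyte genes lay far above the background level. Of the 17, 3 exceeded it by 1 or more on the log2 scale on at least 1 array (Cd53, Cx3cr1 and H2-Ab1), and 14 by less. Within 0.2 of the level on at least 1 array were 16 of the 44. The median value of the 44 was 5.27 on the stimulated array and 5.26 on the non-stimulated array, under the background level of each. The receptor probesets had lower medians, 3.35 with homogenate and 3.42 without. All named genes had higher medians, 6.13 with homogenate and 6.16 without. A value on this array also depends on how well each gene's probes bind, so that levels of different genes are set here only against the background and not against each other. In RNA of whole cultures, fewer cells of a type and less RNA per cell cannot be told apart.

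**Figure D2:**
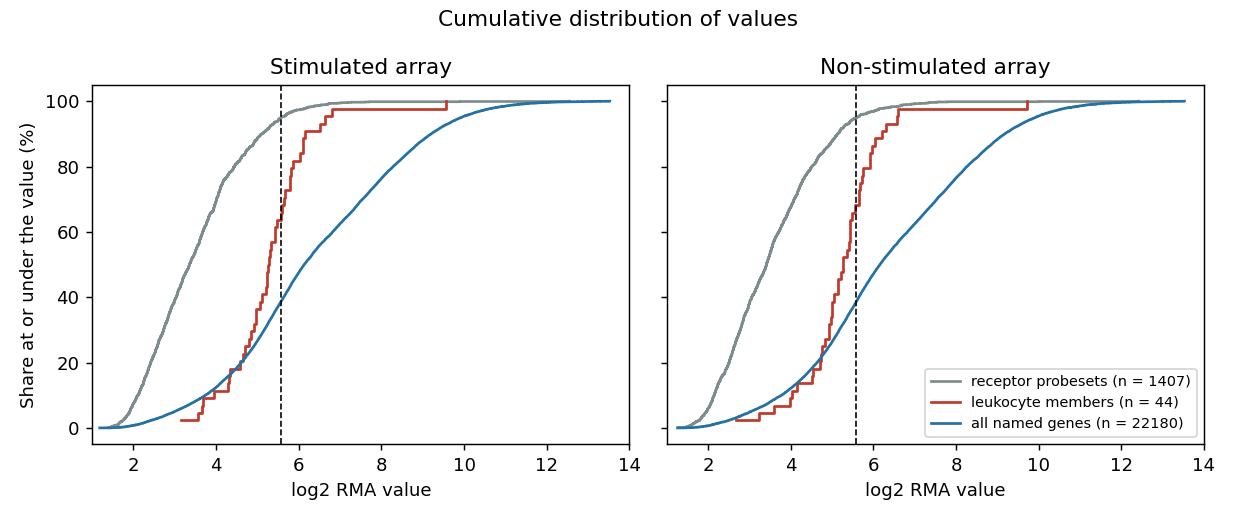
Cumulative share of probesets or genes, in percent, at or under each log2 value on the stimulated array (left) and on the non-stimulated array (right), for receptor probesets, leukocyte genes and all named genes. The dashed line is the background level. The leukocyte curve lies to the right of the receptor curve over most of its course, and Cd53 forms its last step, at 9.56 with homogenate and 9.73 without.

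Among the pan-leukocyte genes, the tetraspanin gene Cd53 was far above background while Ptprc, which encodes CD45, was under it. Cd53 read 9.56 on the stimulated array and 9.73 on the non-stimulated array, and 0.142% of the receptor probesets read as high on either. The arrays differed by -0.17. Cd37, another leukocyte tetraspanin gene, read 6.10 on the stimulated and 6.21 on the non-stimulated array, also above background on both. Laptm5, which encodes a lysosomal membrane protein of blood cells, was just above it at 5.60 with homogenate and 5.66 without.

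Ptprc read 3.95 on the stimulated array and 4.16 on the non-stimulated array, where 32.6% of the receptor probesets on the stimulated array and 28.4% on the non-stimulated array read as high or higher. The other pan-leukocyte genes were under background on both arrays as well. These were Cd48 (an adhesion receptor of the SLAM family), Cd52 (a small GPI-anchored glycoprotein) and Coro1a (an actin-binding coronin). The differences of the 7 genes ran from -0.21 to 0.06, with 5 lower and 2 higher on the stimulated array. All 3 above background were lower there, with a median of -0.10, against 48.2% of all genes above background that were lower by any amount.

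Tetraspanins are also made by many cells outside the blood. Of 23 tetraspanin genes outside the set, such as Cd9, Cd63 and Cd81, 20 or 87.0% were above background on at least 1 array. Of all named genes, 63.4% were. The differences of the 20 tetraspanin genes ran from -0.40 to 0.27, with a median of 0.00. Whether the level of Cd53 is related to that of other tetraspanin genes was not tested.

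The promoters of Cd53 and Cd37, the tetraspanin genes of the set, are shown with that of Ptprc, because Cd53 was the pan-leukocyte gene furthest above background while Ptprc, the defining gene of all leukocytes, was under it. Each is 250 bases before to 50 after the gene's start, from RefSeq (GRCm38.p6), on the minus strand and read 5′ to 3′ along the gene. Capitals mark ACTTCCTC, the reverse complement of GAGGAAGT, a purine-rich motif of the kind PU.1 binds, which was searched on both strands.
Cd53, chr3:106790100-106790399: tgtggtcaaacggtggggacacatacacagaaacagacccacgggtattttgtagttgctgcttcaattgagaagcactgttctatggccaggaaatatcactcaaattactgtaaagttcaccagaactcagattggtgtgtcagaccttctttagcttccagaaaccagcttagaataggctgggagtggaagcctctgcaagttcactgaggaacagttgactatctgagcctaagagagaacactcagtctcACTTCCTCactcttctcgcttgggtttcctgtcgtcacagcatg
Cd37, chr7:45238790-45239089: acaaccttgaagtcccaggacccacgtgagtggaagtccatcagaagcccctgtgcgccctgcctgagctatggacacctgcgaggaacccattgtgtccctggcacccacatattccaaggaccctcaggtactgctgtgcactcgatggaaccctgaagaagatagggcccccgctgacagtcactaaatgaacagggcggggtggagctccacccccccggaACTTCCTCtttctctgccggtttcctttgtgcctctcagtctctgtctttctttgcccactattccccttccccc
Ptprc, chr1:138175256-138175555: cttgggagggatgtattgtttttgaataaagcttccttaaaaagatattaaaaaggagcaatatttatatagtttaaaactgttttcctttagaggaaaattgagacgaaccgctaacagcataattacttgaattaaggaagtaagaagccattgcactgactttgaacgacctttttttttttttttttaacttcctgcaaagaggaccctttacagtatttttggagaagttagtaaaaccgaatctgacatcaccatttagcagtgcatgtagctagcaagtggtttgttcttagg
In Cd53 the motif begins at base 7 after the start, and in Cd37 at 25 bases before it. Neither of the 2 Ptprc promoters in the table, of which the first listed is printed, holds these letters. Only these exact letters were searched. The printed Ptprc sequence holds near matches, aaggaagt and acttcctg, so the search does not show that Ptprc lacks sites of this kind. Of 31 genes of the set with a promoter in the table, 4 hold the motif (Cd53, Cd37, Elane and S100a8), and 4 of the 36 promoters of these 31 genes, or 11.1%, do so, against 3.20% of all 32851 promoters. A match is a description of the sequence, and binding was not measured here. Whether the motif goes with the level of a gene was not tested.

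Spi1 itself, the gene of PU.1, read 6.10 on the stimulated array and 5.91 on the non-stimulated array, above background on both, with 2.42% of the receptor probesets as high on the stimulated and 3.27% on the non-stimulated array. Under the background from taste receptor, crystallin, protamine and beta-defensin genes it was not above the level on either array.

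**Figure D3:**
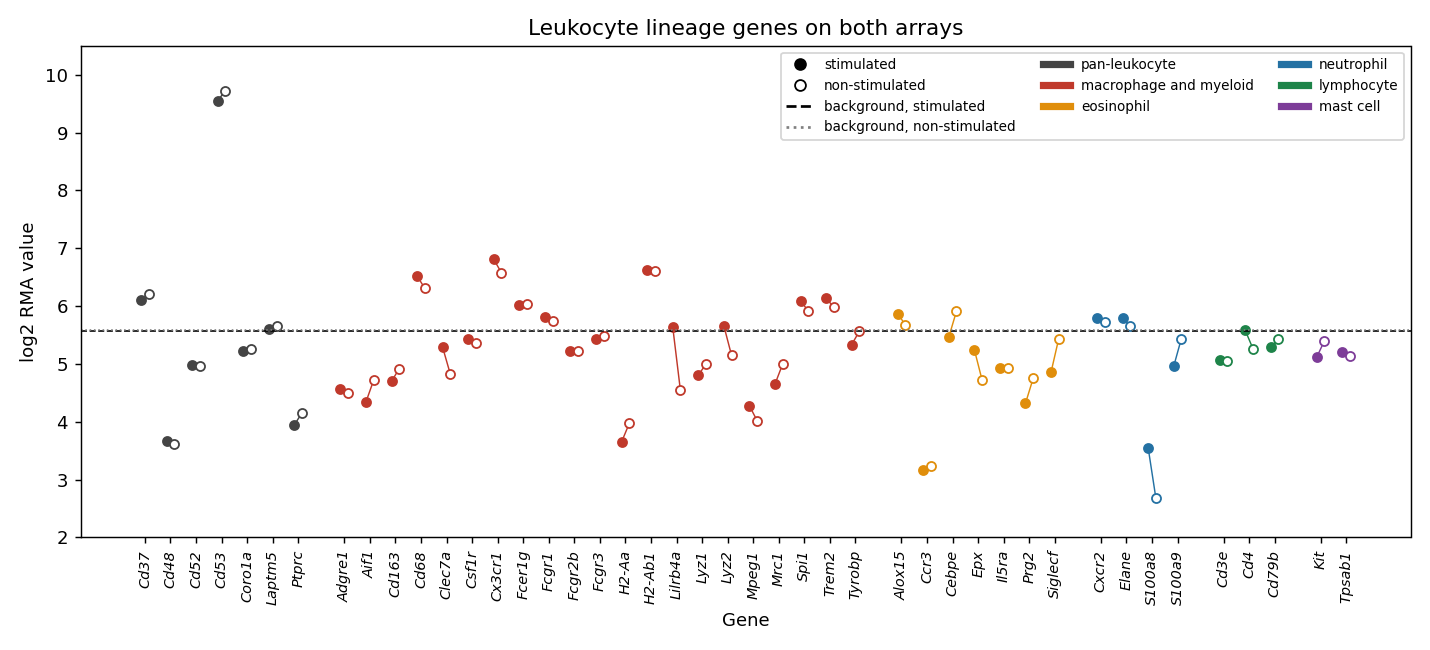
Log2 value of each leukocyte gene on the stimulated array (filled, left) and the non-stimulated array (open, right), coloured by lineage, with the background level of each array as a dashed or dotted line. Cd53 reads 9.56 with homogenate and 9.73 without, and all other genes read under 7.

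Macrophage and myeloid genes made up 21 of the 44. Of these 21, 9 or 42.9% were above background on at least 1 array, against 63.4% of all named genes. On both arrays it was 7 or 33.3%, against 59.5% of all named genes. The fractalkine receptor gene Cx3cr1, a marker of intestinal macrophages, read 6.81 on the stimulated array and 6.57 on the non-stimulated array. Cd68, a lysosomal glycoprotein gene used as a macrophage marker and also found in other cells rich in lysosomes, read 6.52 with homogenate and 6.31 without. Both were higher on the stimulated array, by 0.23 for Cx3cr1 and 0.21 for Cd68.

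Other genes used to define tissue macrophages were under background on both arrays. Adgre1, which encodes the F4/80 antigen, read 4.57 on the stimulated and 4.51 on the non-stimulated array. Csf1r, the receptor gene for macrophage colony-stimulating factor, read 5.43 with homogenate and 5.36 without. Mrc1 and Cd163, a mannose and a scavenger receptor gene of resident macrophages, were also under it, as were Aif1 (the actin-binding IBA1), Mpeg1 (the pore-forming perforin-2) and Clec7a (the beta-glucan receptor dectin-1). Over all 12 myeloid genes under background on both arrays, values ran from 3.65 to 5.43 on the stimulated array and from 3.97 to 5.56 on the non-stimulated array.

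Fc receptor genes were split across the level. Fcgr1, the high-affinity IgG receptor gene, read 5.81 on the stimulated array and 5.75 on the non-stimulated array. Its signalling partner Fcer1g, the common gamma chain, read 6.03 with homogenate and 6.04 without. The low-affinity receptor genes Fcgr2b and Fcgr3, which resemble each other in sequence, were under background on both arrays, and Fcgr2b had the same value of 5.22 on each. The lipid-sensing receptor gene Trem2 read 6.15 on the stimulated and 5.98 on the non-stimulated array, while its adaptor gene Tyrobp was under background at 5.33 with homogenate and 5.56 without.

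Class II antigen presentation was split as well. H2-Ab1, which encodes the beta chain of the I-A molecule, read 6.63 on the stimulated array and 6.61 on the non-stimulated array. H2-Aa, its alpha chain, read 3.65 with homogenate and 3.97 without, under background, where 41.0% of the receptor probesets on the stimulated array and 33.1% on the non-stimulated array were as high.

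The lysozyme genes Lyz1 and Lyz2 encode near-identical bacteriolytic enzymes, so their probesets may not separate them. In the gut Lyz1 is the Paneth cell form and Lyz2 the macrophage form. Lyz2 read 5.66 on the stimulated array and 5.15 on the non-stimulated array, and only the stimulated value was above background. That value was 1.06-fold over the background level of the non-stimulated array. Lyz1 read 4.80 with homogenate and 5.00 without, under background on both.

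Lilrb4a, an inhibitory immunoglobulin-like receptor gene of myeloid cells, was under background on the non-stimulated array. It read 5.64 on the stimulated array and 4.54 on the non-stimulated array, a difference of 1.10 as read. The stimulated value was only 1.04-fold over the background level of the non-stimulated array, which sets no lower limit on a change. Lilrb4a was the only leukocyte gene past 2-fold, 1 of the 17 above background, where 0.192% of all genes above background were 2-fold higher or more. No leukocyte gene was 2-fold lower, where 0.0426% of all genes above background were. With values under background raised to it, no leukocyte gene reached 2-fold. Among the receptor probesets, 0.569% differed by as much as Lilrb4a in either direction.

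Of the 7 myeloid genes above background on both arrays, 6 read higher on the stimulated array and 1, Fcer1g, lower by 0.01, with a median of 0.17. With differences centred on a trend over level, Fcer1g turned to higher by 0.01. Of all genes above background, 50.2% were higher by any amount. Further myeloid genes, outside the set, went the other way, with 2 of 8 above background on both arrays higher, 6 lower and a median of -0.21. The 12 myeloid genes under background were mixed, with 4 higher, 7 lower and 1 equal.

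Eosinophil genes bear on the homogenate, which was prepared from eosinophils, and on the label field that names them as the source. Of 7 such genes, 2 or 28.6% were above background on at least 1 array, against 63.4% of all named genes. By array, 1 was above background on the stimulated array and 2 on the non-stimulated array. The granule protein genes Epx (eosinophil peroxidase) and Prg2 (major basic protein) were under it on both. Epx read 5.25 on the stimulated array and 4.73 on the non-stimulated array, a difference of 0.52. Prg2 read 4.32 with homogenate and 4.75 without, a difference of -0.43. Since all 4 values were under background, no direction can be read from either.

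The surface receptor genes of eosinophils were under background on both arrays too. Siglecf, a sialic acid-binding receptor gene, read 4.85 on the stimulated array and 5.43 on the non-stimulated array, a difference of -0.58 as read, and 9.03% of the receptor probesets differed by as much in size. Ccr3, the eotaxin receptor gene, read 3.16 with homogenate and 3.23 without. Il5ra, the receptor gene for the eosinophil growth factor IL-5, read 4.93 on both. Of the receptor probesets, 55.9% with homogenate and 55.4% without read as high as Ccr3 or higher.

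Alox15, a lipoxygenase gene, was above background on both arrays, at 5.87 on the stimulated and 5.68 on the non-stimulated array. Cebpe, a transcription factor gene of granulocyte maturation, read 5.46 on the stimulated array, under background, and 5.91 on the non-stimulated array. The non-stimulated value was 1.27-fold over the background level of the stimulated array, and Cebpe passed the level only through the non-stimulated array. Its difference was -0.45 as read, and 19.0% of the receptor probesets differed by as much in size. No eosinophil gene passed 2-fold in either direction.

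Neutrophil genes gave 2 of 4 (50%) above background, both on both arrays, against 59.5% of all named genes. Cxcr2, the receptor gene for neutrophil-attracting chemokines, read 5.80 on the stimulated array and 5.73 on the non-stimulated array. Elane, neutrophil elastase, read 5.79 with homogenate and 5.65 without. The calprotectin genes S100a8 and S100a9, whose products form a dimer and are abundant in neutrophils, were under background on both. S100a8 read 3.55 on the stimulated array and 2.69 on the non-stimulated array, a difference of 0.87. S100a9 read 4.96 with homogenate and 5.44 without, a difference of -0.48. No direction can be read from these values, all under background.

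Lymphocyte and mast cell genes were at or under the level. Cd4, the helper T cell co-receptor gene, read 5.58 on the stimulated array, 0.01 above background, and 5.26 on the non-stimulated array. Cd3e, a T cell receptor subunit gene, read 5.07 with homogenate and 5.05 without. Neither T cell gene was above the level on both arrays. Cd79b, a B cell receptor subunit gene, read 5.29 with homogenate and 5.43 without. Kit, the receptor gene for stem cell factor that mast cells share with the pacemaker cells of the gut, read 5.12 on the stimulated array and 5.40 on the non-stimulated array. Tpsab1, a mast cell tryptase gene, read 5.20 with homogenate and 5.15 without. Neither mast cell gene was above background on either array.

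Over all 44 genes the differences centred near 0. Higher on the stimulated array were 22, lower 20, and 2 were equal (Il5ra and Fcgr2b), with a median of 0.01 against 0.00 over all named genes. Of the 17 above background, 12 were higher and 5 lower. Their median was 0.13, against 0.00 over all 14068 genes above background. These 17 include genes that passed the level only through the array on which they read high, 3 of them on the stimulated and 1 on the non-stimulated array. The 13 above background on both arrays had a median of 0.07. None of these 13 differed by 0.5 or more. Of the 17, 2 were higher by as much, Lilrb4a and Lyz2, and none lower, but both passed the level only through the stimulated array. For comparison, 1.2% of all genes above background were higher and 1.15% lower by as much.

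The differences among receptor probesets show how far dim probesets read apart on these arrays. The central 95% of their differences lay between -0.74 and 0.64, and 14.4% differed by 0.5 or more in size. Of the 44 leukocyte genes, 42 lay inside that range, Epx, Prg2, Siglecf and S100a9 among them, and 2 lay outside it, Lilrb4a and S100a8. The receptor probesets had lower median values than the leukocyte genes. Among the 3517 dimmest genes above background on at least 1 array, the central 95% of differences was narrower, between -0.51 and 0.48. Epx, Siglecf and Lyz2 lay outside that range as well. Epx and Siglecf were under background on both arrays, so they are not among the genes that gave this narrower range. S100a8 was under background on both arrays, so its difference has no measured level on either side. Among the 27 leukocyte genes under background on both arrays, 3 (Epx, Siglecf and S100a8) differed by 0.5 or more in size, or 11.1%, against 7.93% of all named genes under it.

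**Figure D4:**
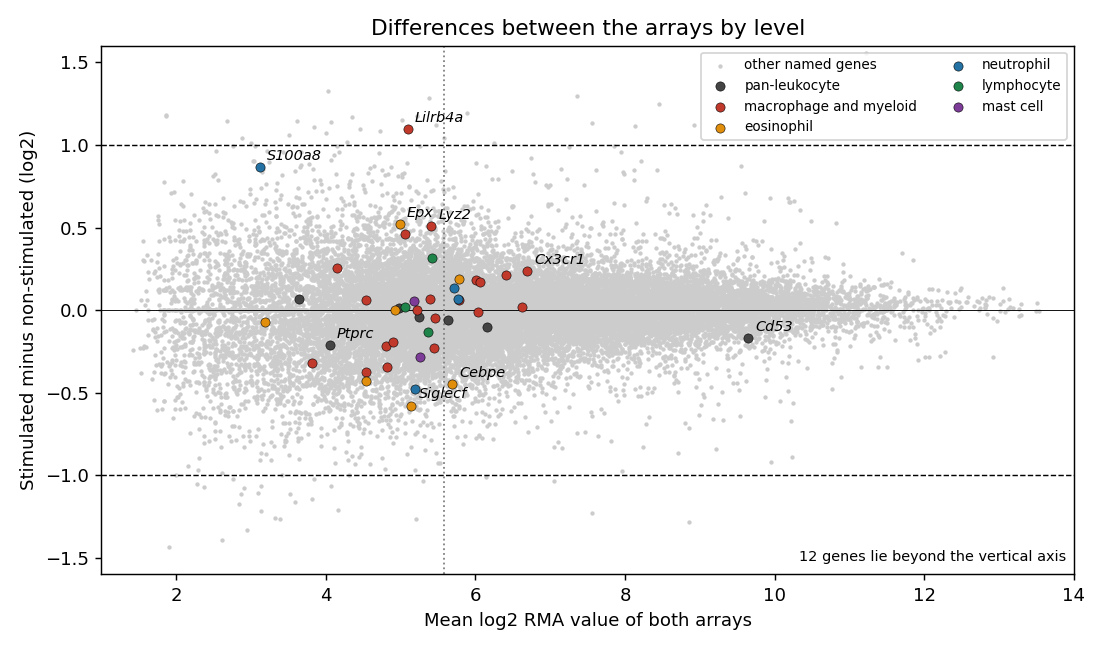
Difference between the arrays, stimulated minus non-stimulated (log2), against the mean log2 value of both, for the leukocyte genes (coloured by lineage) and all other named genes (grey), of which 12 lie beyond the vertical axis. Dashed lines mark 2-fold and the dotted line the background level. Lilrb4a, at 1.10, is the only leukocyte gene past a dashed line.

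Further leukocyte genes outside the set were counted in the same way. Of 93 such genes with a probeset, 26 or 28.0% were above background on at least 1 array, against 63.4% of all named genes. On both arrays 59.5% of all named genes were, and these shares also stand beside the counts by lineage below. The differences of the 26 ran from -0.34 to 0.35, with 14 higher and 11 lower and a median of 0.02. None passed 2-fold or a difference of 0.5. Of all genes above background, only 1.2% were higher and 1.15% lower by 0.5 or more, so the absence of any here is near that share.

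By lineage, 9 of 22 further pan-leukocyte genes were above background, 8 of them on both arrays. These 8 were Arhgap30, Arhgdib, Cyth4, Itgal, Lcp2, Plek, Rac2 and Selplg. Arhgdib read 7.66 on the stimulated array and 7.82 on the non-stimulated array. Selplg, the P-selectin ligand gene, read 5.71 with homogenate and 5.97 without, Rac2, a GTPase gene of blood cells, 5.70 with homogenate and 5.94 without, and Itgal, the alpha chain gene of the integrin LFA-1, 5.99 with homogenate and 5.88 without. Its beta chain gene Itgb2 was above background on the stimulated array alone.

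Of 27 further macrophage and myeloid genes, 8 (29.6%) were above background on both arrays, namely C1qa, Ciita, H2-DMa, H2-Eb1, Lyve1, Marco, Ncf1 and Ncf4. Ciita, the master regulator gene of class II expression, read 6.47 on the stimulated array and 6.12 on the non-stimulated array. The class II genes H2-Eb1 (5.92 with homogenate and 6.26 without) and H2-DMa (6.33 with homogenate and 6.61 without) went the other way, lower on the stimulated array, as did Ncf4, a subunit gene of the phagocyte oxidase (5.80 with homogenate and 6.10 without). Ciita and these 2 class II genes thus differed in opposite directions as read, while H2-Ab1 differed by 0.02. Differences of this size were common, as 31.1% of the receptor probesets differed by as much as Ciita in size. For H2-Eb1 it was 31.9% and for H2-DMa 38.9%.

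Of 9 further eosinophil genes, 4 were above background on both arrays. These were Alox5, Csf2ra, Csf2rb and Ltc4s. Alox5 and Ltc4s encode leukotriene-forming enzymes, and Csf2ra and Csf2rb encode the chains of the GM-CSF receptor. Csf2ra read 7.40 on the stimulated array and 7.52 on the non-stimulated array, Alox5 6.69 on both, Ltc4s 6.08 with homogenate and 6.19 without, and Csf2rb 5.74 with homogenate and 5.67 without. The 5 others, the granule genes Prg3, Ear6 and Ear10 among them, were under background on both arrays.

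Of 12 further neutrophil genes, the chemokine receptor gene Cxcr1 (5.90 on the stimulated and 5.74 on the non-stimulated array) and the proteinase 3 gene Prtn3 (6.50 with homogenate and 6.17 without) were above background. Of 13 further lymphocyte genes, Cd8b1 (5.92 with homogenate and 5.63 without) and Nkg7 (5.86 with homogenate and 5.86 without) were above it on both arrays. None of 10 further mast cell genes was above it on either array, Cpa3 and Mcpt4 among them.

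The chemokine genes Cxcl5, Cxcl1, Ccl11 and Ccl7, whose products bind receptors of the set, differed by more than any leukocyte gene. Of 14 ligand genes, 9 were above background on both arrays, or 64.3%, near the 59.5% of all named genes. The ligand list was chosen with earlier results of these data known, so its counts describe it and test nothing. Of the 9 above background, 8 were higher on the stimulated array, where 50.2% of all genes above background were. By 2-fold or more 4 were higher, where 0.192% of all genes above background were. For Cxcr2 these were Cxcl5 (10.19 on the stimulated and 6.31 on the non-stimulated array) and Cxcl1 (8.66 with homogenate and 5.78 without). For Ccr3 they were Ccl11 (11.12 with homogenate and 9.26 without) and Ccl7 (11.55 with homogenate and 10.33 without), while Ccl5 read 5.87 with homogenate and 5.86 without. Each of these 4 lay above the receptor background on both arrays. Under the background from taste receptor, crystallin, protamine and beta-defensin genes, Cxcl5 and Cxcl1 were above the level on the stimulated array alone. For Csf1r, Csf1 read 10.84 with homogenate and 10.52 without and Il34 read 6.80 with homogenate and 6.77 without. Cx3cl1, the ligand of Cx3cr1, read 6.34 with homogenate and 6.02 without. Kitl, the ligand of Kit, was lower on the stimulated array, at 8.11 with homogenate and 8.61 without. The 5 other ligand genes were under background on both arrays. They were Cxcl2, Cxcl3 and Ppbp for Cxcr2, Ccl24 for Ccr3 and Il5 for Il5ra. Of the receptor genes themselves, Cxcr2 differed by 0.07, Ccr3 by -0.07, Csf1r by 0.07, Cx3cr1 by 0.23 and Kit by -0.28. Of these 5, Ccr3, Csf1r and Kit were under background on both arrays.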

How the data were processed

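RNA of pooled myofibroblast cultures was measured on 2 GeneChip Mouse Gene 2.0 ST arrays, 1 for each condition. The deposited values are log2 values per probeset, made by the authors with Affymetrix Expression Console and RMA per the submitters' processing notes, with no version named there. RMA sets both arrays to one distribution, so a shift common to all genes cannot be seen. Of 41345 probesets, 23521 were paired with 1 gene by the platform annotation and used, with symbols updated through the RefSeq table of GRCm38.p6 (23328 matched). Per gene, the probeset with the highest mean of both arrays was taken. Olfactory and vomeronasal receptor probesets gave the background. A fold against a value under background is given from the background level of that array. With 1 array a condition such a fold has no error and sets no lower limit on a change. With 1 array a condition no test was run. The functions were tested on simulated data. Genes, lists and thresholds were chosen with earlier results of these data known. Every gene of the set is named, with both values for those above background and for defining genes. Of the further leukocyte lists, genes above background on both arrays are named, and at most the 4 with the largest differences have values. All genes of the ligand list are named. Of the tetraspanin, fibroblast, endothelial, epithelial and enteric lists, only examples or counts are given. Python 3.11.15, pandas 2.3.3 and statsmodels 0.14.6 were used. Other backgrounds, probeset rules, filters and centring were tried.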

Additional observations from a re-analysis of the deposited data

How the results depend on the processing

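The count of 17 leukocyte genes above background moved with the background. It was 2 at the 99th percentile of the receptor probesets, 43 at their median, and 4 with taste receptor, crystallin, protamine and beta-defensin probesets. Without the crystallins, an alternative chosen after seeing the data, it was 7. With the mean of a gene's probesets it was 17 and with probesets of several genes added, 18. The mean of probesets could not move any result, because every leukocyte gene had a single probeset. It is still counted among the other alternatives below, where it is no check. The median difference of 0.13 was 0.0323 at the 99th percentile, 0.0103 at the median of the receptors and 0.0051 with no background filter, and between 0.06 and 0.15 under the 9 other alternatives, 2 of them (without Lilrb4a and without Cd53) chosen after seeing the data. The single gene past 2-fold, Lilrb4a, gave a count of 0 at the 99th percentile and 0 with the taste receptor, crystallin, protamine and beta-defensin background, where its stimulated value too was under the level, 0 with values under background raised to it, and 1 under the 5 other alternatives. Differences of 31 named genes moved by at most 0.04 when centred on a trend over level, and only Fcer1g, near 0, changed sign. Values under background carry no measured difference, and 1 array a condition gives no error. No paired analysis was possible because each condition has 1 array.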
